A study of Rattus norvegicus with 32 samples.

Results

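The genes described here are 66 genes of the extracellular matrix and of the proteases that cut it, measured by RNA sequencing in the hippocampus of R237H rats, a model of Alexander disease, and of WT littermates. They were found by symbol, and hold collagen and laminin chains, link proteins, proteoglycans, fibulins and thrombospondins as well as ADAM, ADAMTS and matrix metalloproteinases, plasminogen activators, TIMPs and serpins. Symbols were at hand for 3289 of the 23822 gene identifiers in the count table, because they were read from the 4 ranked lists of differential genes that accompany the study, 1 for each sex and age. Those lists, as used here, end after 1999 rows for males and 1855 for females at P56 and after 1999 rows for each sex at P21, so every member was chosen on the values of at least 1 comparison between genotypes. Fbln5 stood at row 1991 and Mmp2 at row 1985 of the list for males at P21, just inside its end, with means of 10.7 and 10.1 CPM, counts scaled to library size, in WT and 14.6 and 15.3 in R237H rats. Genes past the end of a list carry no symbol here and none is named. Lists of the male rats named 53 members, lists of the female rats 57, lists of both sexes 44, all 4 lists 19, and a single list 21.

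Because of that choice, a test is given in one sex only for members that a list of the other sex named, since those rats took no part in choosing them. For the remaining members the values are a description with no test. In males 57 members could be tested in this way and in females 53.

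The rats were Crl:CD(SD) males and females, either Gfap+/R237H, which carry a point mutation in 1 copy of the gene for glial fibrillary acidic protein (GFAP), or wild-type Gfap+/+ littermates. Hippocampi were taken at postnatal day 21 (P21), before overt symptoms, and at P56, when R237H rats are severely affected. There were 4 rats in each group of genotype, sex and age, except for 3 WT and 5 R237H females at P21, which makes 32 rats in 8 groups. The mutation is present in every cell of the animal, GFAP is made mainly by astrocytes, and whole hippocampus was sequenced, so fewer cells of a type and less RNA per cell cannot be told apart. Age and collection moved together, and all 8 males at P21 share 1 title number.

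As background, the matrix of the adult brain holds little fibrillar collagen outside the meninges and vessel walls. Between cells it is built on hyaluronan, to which lecticans such as neurocan bind through link proteins, and around many inhibitory neurons it condenses into perineuronal nets. Laminins and collagens form the basement membranes of vessels, and ADAMTS and matrix metalloproteinases cut these networks under the control of TIMPs. Plasminogen activators turn plasminogen into plasmin and are blocked by serpins, and reactive astrocytes and microglia are known sources of many of these proteins.

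Total counts per rat ranged from 21580398 to 55544866 with a median of 46157264, and all but 2 R237H males (1 at each age) held at least 38503682. Gfap itself was higher in R237H rats in each comparison, with log2 fold changes of 2.53 to 2.89, while the count table does not show which allele was read. Symbols were at hand for 10 of 11 choroid plexus markers, and their summed level was 48.1 to 199.8 TPM, which is scaled to gene length and library size, in 27 rats but 7053.0 in WT male s66-B and 918.9 in R237H male s70-B at P56, 1965.1 in R237H female s70-C at P56, 1236.7 in WT male R1781C and 3913.6 in WT female R1797C at P21. All 7 microglia and macrophage markers were higher in R237H rats in every comparison, with median log2 fold changes of 1.65 to 2.41. The 4 red blood cell markers were lower in R237H rats of both sexes at P56, with medians of -3.8 and -2.87, against 0.02 and -0.18 at P21. Of the markers of other cells, 6 for fibroblasts and meninges, 4 for pericytes and smooth muscle, 6 for astrocytes, 3 for neurons, 1 for the oligodendrocyte lineage and none for endothelium had a symbol. The 3 neuron markers had medians of -1.03 in males and -0.71 in females at P56, where 2 and 1 were decreased, and -0.13 and -0.24 at P21, where none was called. The 4 pericyte and smooth muscle markers had medians of 0.08 in males and -0.44 in females at P21, and 0.2 and 0.13 at P56. Of these only Tagln was increased, with log2 fold changes of 1.97 and 1.99 at P21 and 2.31 and 2.05 at P56. In females at P21, 1 of the 4 was decreased. The fibroblast and meninges markers had medians of 0.3 and -0.84 at P21 and -0.8 and -0.72 at P56, and the astrocyte markers 0.33 and 0.32 and -0.03 and 0.01. The 1 oligodendrocyte marker was decreased in males at P21, at -0.39, and increased in males at P56, at 0.7. In females it was not called, at -0.31 and 0.56. The part of any of these cells in the results was not tested.

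Values below are CPM scaled by the trimmed mean of M-values (TMM) over all 32 rats, given per rat from lowest to highest or as mean ± SD. Log2 fold changes are R237H minus WT, with their standard error (SE), from edgeR's quasi-likelihood test within each sex and age. FDR is its Benjamini-Hochberg adjusted p over all genes tested, and a gene was called increased or decreased where it was under 0.01. The median biological coefficient of variation, the fitted spread between rats, was 8.94% in males at P21. It was 15.3% in females at P21, and 17.3% and 15.6% in males and females at P56. A gene called in males and not in females at P21 may therefore have a like fold change in both.

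Among members named by the lists of the other sex, more were increased than decreased in R237H rats in each comparison. At P21, 32 of 56 tested were increased and 9 decreased in males (57.1% and 16.1%), and 19 of 53 increased and 4 decreased in females (35.8% and 7.55%). At P56, 30 of 57 were increased and 11 decreased in males (52.6% and 19.3%), and 34 of 53 increased and 10 decreased in females (64.2% and 18.9%). Over all genes tested the shares at P21 were 12.4% increased and 4.82% decreased for males, and 7.06% and 0.753% for females, and those at P56 were 16.8% and 11.1% for males, and 17.0% and 11.1% for females. The nearer background is the set of all identifiers named by the other sex, which were chosen in the same way. In that set, at P21, 60.0% were increased and 11.1% decreased for males, and 36.3% and 3.26% for females, and at P56 65.7% and 16.2% for males, and 63.8% and 21.8% for females. The members' share increased was 52.6% against 65.7% in males at P56 and nearer to that of the set in the other comparisons, so the count by itself is no result about them. The median log2 fold change of the members was 0.68 and 0.67 at P21 and 1.09 and 1.12 at P56 in males and females, against 0.61, 0.56, 1.22 and 1.0 in the whole set.

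**Figure D1:**
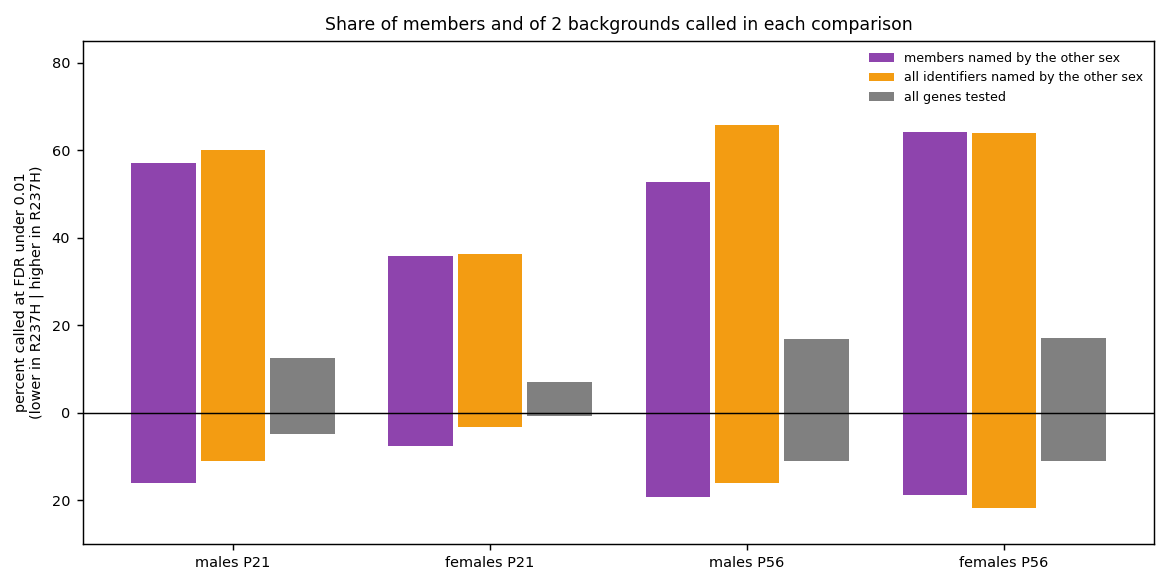
Percent of genes called at FDR under 0.01 in each comparison, upward for increased and downward for decreased in R237H rats, for members named by the other sex, for all identifiers so named and for all genes tested. The increased share of the members is next to that of all identifiers named in females at P56 (64.2% and 63.8%) and below it in males at P56 (52.6% and 65.7%), and both are above that of all genes tested (17.0% and 16.8%).

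Of the 44 members named by lists of both sexes, 16 were increased in all 4 comparisons, among them Adam12, Adam17, Adamts1, Adamts5, Col14a1, Lamc1, Loxl4, Mmp19, Ncan, Plat, Plau, Serping1, Serpinh1, Thbs1 and Timp1. Another 4, Adamts19, Col11a2, Hapln1 and Hapln3, were decreased in all 4. Without the 5 rats with choroid plexus RNA, Adam12 and Ncan in males at P56 and Adam12, Lamc1, Plau and Adamts19 in females at P21 were no longer called, and Adamtsl4, Lama3 and Serpinb1a were then increased in all 4. Adamts20 was called in both directions. In all, 34 were increased at least once and never decreased, and 9 were decreased at least once and never increased. Rats of both sexes took part in choosing these 44, so the counts over the 4 comparisons are a description with no test. The share of other genes with such patterns was not counted.

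**Figure D2:**
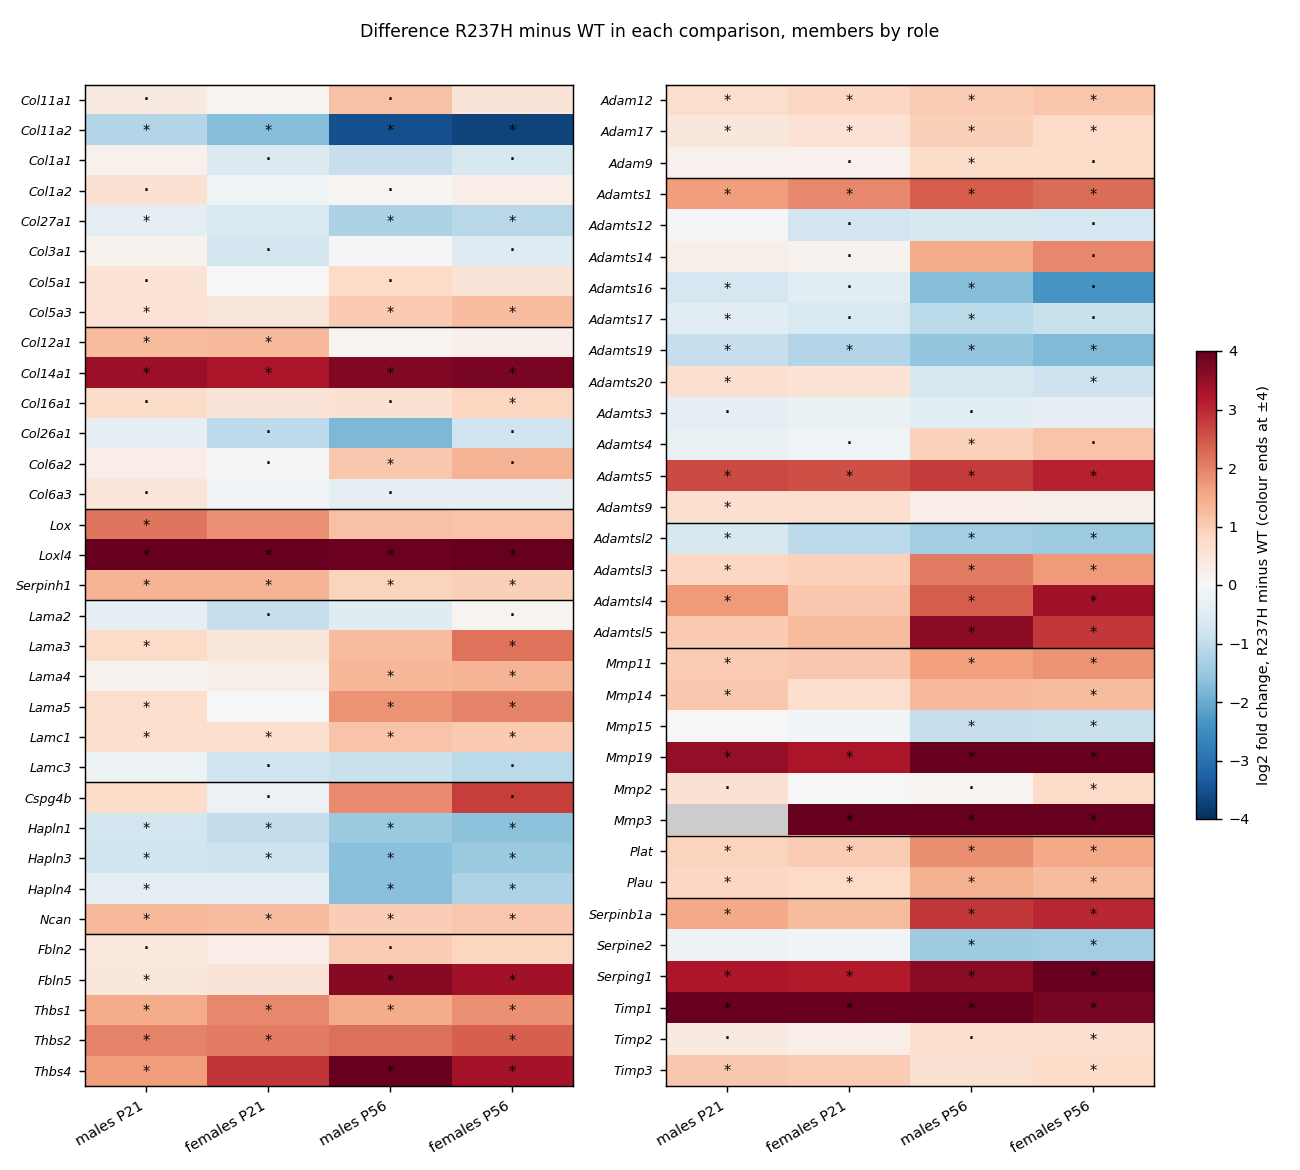
Log2 fold change, R237H minus WT, of 65 members in the 4 comparisons, in blocks by role with lines between roles. A star marks a call at FDR under 0.01, a dot a value given with no test because no list of the other sex named the gene, and grey a gene not tested. Loxl4 and Timp1 are dark red in all 4 columns and Col11a2 is blue in all 4, darkest at P56.

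Promoter sequences were at hand for 47 of the 66 members, and the 250 bases before the start are shown for Mmp3 and Timp1, an inducible protease and its inhibitor that rose, and for Col11a2, which fell. They are from RefSeq, build GRCr8, written 5′ to 3′ on the strand of the gene, with capitals for matches to an AP-1 site (TGANTCA) or a TATA box (TATAAA) on either strand. Mmp3 lies at chr8:12925031-12925280 on the plus strand, Timp1 at chrX:3771123-3771372 on the minus strand and Col11a2 at chr20:4817649-4817898 on the minus strand.
Mmp3: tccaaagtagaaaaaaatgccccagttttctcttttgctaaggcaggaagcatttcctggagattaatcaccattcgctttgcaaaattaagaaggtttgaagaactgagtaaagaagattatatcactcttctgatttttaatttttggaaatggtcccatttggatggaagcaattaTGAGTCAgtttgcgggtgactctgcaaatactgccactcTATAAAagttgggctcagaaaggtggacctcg
Timp1: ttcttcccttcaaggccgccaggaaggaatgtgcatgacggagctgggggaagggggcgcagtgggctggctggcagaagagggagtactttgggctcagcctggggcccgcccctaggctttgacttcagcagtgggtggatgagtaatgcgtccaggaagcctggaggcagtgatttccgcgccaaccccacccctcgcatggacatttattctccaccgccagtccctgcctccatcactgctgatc
Col11a2: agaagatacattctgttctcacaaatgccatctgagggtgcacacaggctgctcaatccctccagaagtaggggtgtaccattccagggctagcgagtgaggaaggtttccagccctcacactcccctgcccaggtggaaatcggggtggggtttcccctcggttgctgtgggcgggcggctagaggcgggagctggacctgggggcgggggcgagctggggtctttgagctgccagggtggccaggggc
The Mmp3 promoter holds an AP-1 match that begins 71 bases and a TATA box that begins 32 bases before the start. No exact match to either, or to the STAT motif TTCNNNGAA, was found in the windows of Timp1 and Col11a2. Near matches were not counted, such as tgagtaa, which is close to the AP-1 motif and is in the windows of Timp1 and Mmp3. The search therefore does not show that Timp1 lacks an AP-1 site. Across 33469 promoters of that length, 6.34% held the AP-1 motif, 7.67% the STAT motif and 12.9% the TATA box. Of 48 promoter entries of members (Adamts17 has 2), AP-1 was found in 2 (Lama3 and Mmp3), STAT in 2 (Adamts4 and Thbs1) and TATA in 7 (Adamts1, Adamtsl2, Col1a2, Lama4, Mmp3, Ncan and Serpinb1a), which is 4.17%, 4.17% and 14.6%.

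Among the 8 fibrillar collagen chains the clearest difference was a loss of Col11a2, which encodes the alpha-2 chain of type XI collagen, a chain best known from cartilage. In males at P21 its CPM was 49, 65.1, 73.3 and 87.4 in the WT rats and 22.3, 29.8, 34.4 and 36.6 in the R237H rats. In females at P21 it was 50.3, 97.6 and 109 in WT and 15.8, 21.1, 24.9, 35 and 35.2 in R237H rats. In neither sex did the genotypes overlap. At P56 the WT males had 97.1, 104, 153 and 213 and the R237H males 6.87, 8.51, 9.78 and 22.9. The WT females had 85.4, 85.6, 187 and 208 and the R237H females 6.78, 9.72, 10.3 and 17. Every R237H rat at P56 was below every WT rat by a wide margin, although WT rats of one group differed among themselves by over 100 CPM. The log2 fold changes were -1.16 (SE 0.17, FDR 3.58e-04) in males and -1.69 (SE 0.29, FDR 0.00284) in females at P21, and -3.52 (SE 0.41, FDR 1.09e-04) and -3.7 (SE 0.38, FDR 3.62e-05) at P56. The call in females at P21 was lost without WT R1790A or without WT R1796A.

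Its partner chain Col11a1 passed no test. In females, where it could be tested, its level was 21 ± 6.52 in WT and 30.3 ± 3.09 in R237H rats at P56, a log2 fold change of 0.52 (SE 0.2, FDR 0.0529) that missed the threshold, and at P21 it was 0.11 (SE 0.22, FDR 0.822). In males at P56 it was 17.1 ± 3.99 in WT and 37.8 ± 4.68 in R237H rats, with no test. Col27a1, another fibrillar chain of cartilage, was decreased in males at both ages, at -0.39 (SE 0.08, FDR 0.00505) and -1.28 (SE 0.16, FDR 1.96e-04), and in females at P56, at -1.11 (SE 0.2, FDR 0.00141). Females at P21 had 25.2 to 35.8 CPM of Col27a1 in WT and 16.6 to 29.9 in R237H rats, which was not called. Col5a3, a chain of type V collagen, was increased in males at both ages, by 0.57 (SE 0.08, FDR 3.37e-04) and 1.05 (SE 0.22, FDR 0.00414), and in females at P56, by 1.23 (SE 0.18, FDR 4.06e-04). In females at P21 it was not called, at 38.4 to 50.4 CPM in WT and 48.1 to 83.4 in R237H rats. Among the chains of the main connective tissue collagens, none that could be tested was called. Col1a1 and Col3a1 were tested in males, and their log2 fold changes were 0.16 (SE 0.15, FDR 0.46) and 0.14 (SE 0.11, FDR 0.376) at P21 and -0.92 (SE 0.51, FDR 0.17) and -0.06 (SE 0.48, FDR 0.933) at P56. Col1a2 and Col5a1 were tested in females and were -0.18 (SE 0.21, FDR 0.664) and 0.02 (SE 0.25, FDR 0.969) at P21 and 0.28 (SE 0.39, FDR 0.595) and 0.53 (SE 0.15, FDR 0.0141) at P56. In the female lists Col1a1 and Col3a1 stood with lower values in R237H rats at P21, 67.1 ± 13 in WT against 40.2 ± 5.0 for Col3a1, and in the male lists Col1a2 and Col5a1 with higher ones, 38.6 ± 9.32 against 58.5 ± 4.69 for Col1a2.

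Of the 6 other collagen chains, Col14a1 rose most. It encodes a collagen that binds to the surface of fibrils. Its CPM was 1.57, 1.75, 1.8 and 2.56 in WT and 17, 17, 19.1 and 28.7 in R237H males at P21, and 1.77, 1.84 and 2.58 and 13, 15.2, 17.6, 24.3 and 26.4 in females. At P56 it was 1.25, 1.49, 1.8 and 6.01 in WT and 23, 28.5, 42.5 and 43.2 in R237H males, and 1.19, 1.2, 2.9 and 3.33 and 21.9, 30.01, 33.2 and 36.5 in females. The genotypes did not overlap in any group, and the highest WT male at P56 was s66-B, the rat with the most choroid plexus RNA. The log2 fold change ranged from 3.25 in females at P21 (FDR 4.29e-05) to 3.8 in females at P56 (FDR 1.45e-05).

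Col12a1, a related fibril-associated collagen, was increased only at P21 among the 4 comparisons. Males at P21 had 24.1, 24.1, 24.3 and 29.8 in WT and 54.1, 56.6, 63.2 and 70.6 in R237H rats, and females 22.5, 24.5 and 28.1 and 39.5, 57.9, 60.6, 68.8 and 80.5. Males at P56 had 16.9, 19.6, 21.7 and 23 in WT and 18.4, 22.6, 22.8 and 23.1 in R237H rats, and females 18.2, 18.4, 20.5 and 22 and 18.7, 22, 25.4 and 25.6. Genotypes were apart at P21 and overlapped at P56, with log2 fold changes of 1.26 (SE 0.1, FDR 1.45e-06) and 1.31 (SE 0.2, FDR 0.00146) against 0.12 (SE 0.13, FDR 0.492) and 0.2 (SE 0.12, FDR 0.217). The difference between the ages was -1.16 in males by the test of age by genotype described below, and in females it was -1.1 (FDR 0.0121), which did not pass. Col6a2, a chain of the beaded type VI collagen, was increased in males at P56, by 1.09 (SE 0.27, FDR 0.00909), and not called at P21, at 0.28 (SE 0.14, FDR 0.153). Its companion Col6a3 was tested in females and not called at either age, at -0.1 (SE 0.14, FDR 0.73) and -0.32 (SE 0.24, FDR 0.302). Col16a1 was increased in females at P56, by 0.85 (SE 0.21, FDR 0.00772), and was 0.5 (SE 0.31, FDR 0.374) at P21. Col26a1, at 0.29 to 3.11 CPM in males, did not pass the test at -0.33 (SE 0.2, FDR 0.241) and -1.79 (SE 0.5, FDR 0.0158).

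Both enzymes that cross-link collagen and elastin were higher in R237H rats, and Loxl4, a lysyl oxidase-like enzyme, had the largest fold changes of all members at P21. Its CPM was 0.208, 0.318, 0.406 and 0.41 in WT and 16.3, 16.5, 17.1 and 23.5 in R237H males at P21. It was 0.309, 0.39 and 0.867 and 13.4, 15.6, 16.4, 19.9 and 28 in females. At P56 it was 0.252, 0.276, 0.408 and 1.74 in WT and 6.03, 8.07, 10.8 and 15.7 in R237H males, and 0.269, 0.314, 0.576 and 0.624 and 6.26, 6.97, 13.1 and 13.7 in females. The lowest R237H rat was above the highest WT rat throughout, and the fitted fold change was 54-fold in males and 36.6-fold in females at P21 and 15-fold and 22.1-fold at P56. The FDR was 2.75e-09, 1.36e-05, 7.07e-04 and 8.66e-06 in that order. Lox itself was increased in males at P21, by 2.13 (SE 0.26, FDR 6.72e-05), and had positive values that missed the threshold elsewhere, 1.82 (SE 0.41, FDR 0.0134) in females at P21, 1.18 (SE 0.44, FDR 0.0513) in males and 1.13 (SE 0.46, FDR 0.0689) in females at P56. Serpinh1, which encodes the collagen chaperone HSP47 and no protease inhibitor despite its name, was increased in all 4 comparisons, from 51.3 ± 2.55 to 133 ± 6.33 CPM in males and 53.3 ± 4.28 to 135 ± 29.1 in females at P21, and from 47 ± 15 to 86.1 ± 8.17 and 46 ± 4.9 to 89.7 ± 13.9 at P56.

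Laminin chains, the core of basement membranes, were increased in some members at each age. Of the chains that could be tested, 3 of 6 were increased in males at each age, and 4 of 4 in females at P56 against 1 of 4 at P21, with none decreased. These counts are small, and the shares of all identifiers named by the other sex are given above. Lama4, an alpha chain of vessel basement membranes, had 32.2, 33.3, 35.4 and 35.5 in WT and 34.3, 35.8, 39 and 42 CPM in R237H males at P21. Females at P21 had 26.4, 30.2 and 31.5 and 28.8, 30.1, 34, 35.3 and 42.3. Genotypes overlapped there in both sexes. At P56 the males had 16.6, 18.1, 18.6 and 19.6 in WT and 35, 37.1, 50.6 and 57.5 in R237H rats, and the females 14.3, 15.7, 20.5 and 20.7 and 39.6, 41.5, 42.3 and 62.5. The lower WT level at P56 was not matched in R237H rats, and the genotypes were apart, with log2 fold changes of 1.33 (SE 0.17, FDR 1.65e-04) and 1.37 (SE 0.18, FDR 1.65e-04) after 0.15 (SE 0.07, FDR 0.153) and 0.23 (SE 0.13, FDR 0.337) at P21. Lama5, the alpha chain of laminin-511, went from 9.95 ± 5.76 to 34 ± 4.55 in males and 8.56 ± 1.26 to 34 ± 1.87 in females at P56, log2 fold changes of 1.79 (SE 0.33, FDR 0.00176) and 1.97 (SE 0.12, FDR 1.24e-06). At P21 it was increased in males, by 0.7 (SE 0.14, FDR 0.00284), while females had means of 9.62 and 9.61. Lamc1, the gamma chain shared by most laminins, was increased in all 4, with log2 fold changes of 0.64 to 1.13. Lama3 was increased in males at P21, by 0.77 (SE 0.1, FDR 8.84e-05), and in females at P56, by 2.18 (SE 0.18, FDR 8.36e-06), and was 0.46 (FDR 0.411) in females at P21. In males at P56 it missed the threshold, at 1.26 (SE 0.5, FDR 0.0678), where s66-B had 18.9 CPM and the other WT males 2.69 to 7.35. Lama2 and Lamc3 were tested in males and not called, at -0.38 (SE 0.1, FDR 0.0134) and -0.2 (SE 0.1, FDR 0.163) at P21 and -0.5 (SE 0.42, FDR 0.373) and -0.89 (SE 0.33, FDR 0.0537) at P56. Females had no test for either. There Lama2 was 21.1 to 40.3 CPM in WT and 13.1 to 17.8 in R237H rats at P21, and 10.1 to 21.5 and 13.6 to 20.4 at P56. Lamc3 was 17.5 to 20.3 and 7.17 to 13.6 at P21, and 12.5 to 26.8 and 7.13 to 12.3 at P56.

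Of the hyaluronan link proteins, Hapln1 and Hapln3 were decreased in all 4 comparisons and Hapln4 in 3, while the lectican neurocan was increased in all 4. The lecticans aggrecan (Acan) and brevican (Bcan), which are no members and had a symbol from the same lists, had negative log2 fold changes throughout, -0.48 and -0.57 at P21 and -1.03 and -0.76 at P56 for Acan, and -0.59 and -0.88 at P21 and -0.64 and -0.58 at P56 for Bcan, in males and females. Hapln1, a link protein of perineuronal nets, had 40.6, 41.1, 41.7 and 44.3 CPM in WT and 21.8, 23.7, 26.6 and 30.1 in R237H males at P21. Females at P21 had 41, 42 and 43.6 and 19.1, 19.4, 19.9, 23.6 and 25.7. All R237H rats were below all WT rats. At P56 the males had 27.4, 28.1, 29 and 30.9 in WT and 8.58, 9.78, 10.4 and 11.7 in R237H rats, and the females 26.8, 29.2, 30.8 and 33.5 and 8.55, 8.93, 10.4 and 10.7. Rats of one group lay close together, and the log2 fold change was -0.72 (SE 0.09, FDR 8.58e-05) and -0.96 (SE 0.11, FDR 2.14e-04) at P21 and -1.48 (SE 0.12, FDR 1.03e-05) and -1.65 (SE 0.12, FDR 2.67e-06) at P56. Hapln4, the link protein known to hold brevican around inhibitory synapses and nodes, had the highest TMM-scaled values of the link proteins. Males at P21 had 182, 197, 205 and 222 in WT and 146, 156, 160.3 and 169.8 in R237H rats, and females 157, 175 and 221 and 134, 136, 144, 146 and 153. At P56 it was 371, 404, 422 and 510.2 in WT and 105, 132, 139.9 and 144 in R237H males, and 293, 363, 364 and 466 and 97.3, 163, 164 and 205 in females. WT rats had more Hapln4 at P56 than at P21, with means of 201 and 427 in males and 184 and 371 in females, while R237H rats had means of 158 at P21 and 130.4 at P56 in males and 142 and 157 in females. The log2 fold change was -0.35 (SE 0.07, FDR 0.00213) and -0.36 (SE 0.11, FDR 0.0612) at P21 and -1.68 (SE 0.13, FDR 8.32e-06) and -1.25 (SE 0.21, FDR 9.61e-04) at P56, so females at P21 missed the threshold although no rats overlapped. Hapln3 was decreased in all 4, at -0.81 and -0.84 at P21 and -1.66 and -1.5 at P56 on the log2 scale. Per length, WT levels were 89.0 ± 10.8 TPM for Hapln4, 35 ± 1.36 for Hapln1 and 9.02 ± 1.57 for Hapln3 at P21 (SD, n = 7), and 162 ± 28.0, 21.8 ± 2.97 and 11.2 ± 2.46 at P56 (SD, n = 8).

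Ncan, which encodes neurocan, a chondroitin sulfate proteoglycan of the developing and the injured brain, rose from 207 ± 22.6 to 506 ± 36.3 CPM in males and from 214 ± 17.1 to 500.2 ± 115 in females at P21. At P56 it rose from 164 ± 23.9 to 315 ± 96.3 and from 169.7 ± 29.1 to 365 ± 65.9. The log2 fold changes were 1.29 (SE 0.08, FDR 2.34e-07), 1.24 (SE 0.18, FDR 0.00102), 0.97 (SE 0.21, FDR 0.00392) and 1.09 (SE 0.15, FDR 2.98e-04), and the call in males at P56 was lost without any one of s65-A, s65-B, s66-B, s69-A and s70-B. Cspg4b, a gene whose reads may be shared with its paralog Cspg4, was tested in males, where WT rats had 2.14, 2.19, 3.56 and 12.5 and R237H rats 11.8, 15.6, 20.5 and 27.8 at P56. The highest WT value is s66-B, and the log2 fold change of 1.9 (SE 0.56, FDR 0.0207) became 2.64 with FDR 3.14e-04 without the choroid plexus rats.

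Fibulins and thrombospondins, glycoproteins that bind elastic fibres, growth factors and cell surfaces, were increased in 4 of 4 members tested in males at P21 and 3 of 4 at P56, and in 2 of 5 and 4 of 5 in females, with none decreased. As with the laminins, such counts are small beside the shares given above for all identifiers named by the other sex. Fbln5, a fibulin needed to assemble elastic fibres, had 8.56, 10.8, 11 and 12.4 CPM in WT and 14.1, 14.2, 14.7 and 15.2 in R237H males at P21. Females at P21 had 9.31, 11 and 12.3 and 11.3, 13.7, 16.2, 17.2 and 18.9, with overlap between genotypes. At P56 the males had 2.84, 3.86, 4.01 and 8.03 in WT and 34.8, 56.3, 58.2 and 81.3 in R237H rats, and the females 2.52, 3.36, 7.68 and 8.88 and 38.6, 48.5, 67.3 and 76.7. From P21 to P56 the WT level was lower and the R237H level several times higher, and the log2 fold change went from 0.45 (SE 0.1, FDR 0.00585) to 3.63 (SE 0.36, FDR 4.07e-05) in males and from 0.53 (SE 0.18, FDR 0.0824) to 3.35 (SE 0.4, FDR 9.21e-05) in females. Thbs1 and Thbs2, secreted by astrocytes during synapse formation, were both raised. Thbs1 was increased in all 4, with log2 fold changes of 1.47 to 1.91. Thbs2 was increased in 3, by 1.98 in males and 2.05 in females at P21 and 2.38 in females at P56, while males at P56 had 2.2 (SE 0.65, FDR 0.02). Thbs4, another thrombospondin, was scarce in WT males, at 0.261 CPM at P21 and 0.0969 at P56, and reached 0.821 and 2.38 in R237H males, log2 fold changes of 1.67 (SE 0.27, FDR 6.05e-04) and 4.62 (SE 0.36, FDR 8.76e-06). In females it was 2.86 (SE 0.66, FDR 0.0157) at P21 and 3.33 (SE 0.43, FDR 1.66e-04) at P56. At P56 WT males had 3 to 6 counts of Thbs4 and WT females 1 to 11, so the size of its changes is uncertain. Fbln2 was tested in females and not called, at 0.28 (SE 0.26, FDR 0.564) and 0.86 (SE 0.28, FDR 0.0299).

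The 3 ADAM proteases, which shed proteins from the cell surface, had small fold changes. Adam17 is the TNF-alpha converting enzyme. Males at P21 had 28.2, 28.2, 29.2 and 29.9 CPM in WT and 38.8, 38.9, 39 and 39.6 in R237H rats, and at P56 23.2, 24.6, 25.9 and 26.8 and 44.8, 45.9, 49.4 and 52.3. Females had 25.5, 25.9 and 26.2 and 37, 37.6, 38.9, 39.5 and 39.7 at P21, and 26.1, 27.5, 27.9 and 28.3 and 43.1, 45.2, 49.5 and 49.8 at P56. The genotypes were apart in all 4 comparisons, with log2 fold changes of 0.44 and 0.59 at P21 and 0.96 and 0.76 at P56. Adam12 was increased in all 4, by 0.7 to 1.12 on the log2 scale. Adam9 was increased in males at P56, by 0.73 (SE 0.15, FDR 0.00288), and not called at P21, at 0.16 (SE 0.06, FDR 0.0568).

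The 11 ADAMTS proteases split, so that their median log2 fold change was near 0 in 3 of the 4 comparisons (0.08 in males at P21, -0.19 in males and -0.05 in females at P56, and 0.61 in females at P21, over those that could be tested). Adamts5, an aggrecanase, had 1.53, 1.53, 1.68 and 1.9 CPM in WT and 8.7, 9.51, 10.1 and 12.8 in R237H males at P21. In females at P21 there were 1.41, 1.62 and 1.73 and 6.87, 8.63, 9.81, 10.6 and 11.2. At P56 it was 1.23, 1.49, 1.68 and 1.73 in WT and 8.17, 10.3, 10.7 and 12.7 in R237H males, and 0.763, 1.47, 1.5 and 1.55 and 7.79, 12.2, 12.4 and 13.2 in females. No groups overlapped, and the log2 fold change was 2.63 (SE 0.14, FDR 7.95e-08) and 2.58 (SE 0.2, FDR 2.16e-05) at P21 and 2.79 (SE 0.19, FDR 4.59e-06) and 3.09 (SE 0.25, FDR 6.78e-06) at P56. Adamts1, which also cuts aggrecan and versican, was increased in all 4, by 1.67 to 2.41. Adamts4, the other classical aggrecanase, was tested in males and was increased at P56, by 0.93 (SE 0.15, FDR 7.98e-04), after -0.29 (SE 0.1, FDR 0.0426) at P21. Adamts9 was increased in males at P21, by 0.66 (SE 0.13, FDR 0.00321), and was 0.67 (SE 0.18, FDR 0.0309) in females at that age. It was 0.27 (SE 0.22, FDR 0.35) and 0.24 (SE 0.19, FDR 0.323) at P56.

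Several less studied ADAMTS proteases fell. Adamts19 was decreased in all 4, at -0.92 and -1.16 at P21 and -1.54 and -1.78 at P56. Adamts16 and Adamts17 were tested in males and decreased at both ages, at -0.68 and -0.45 at P21 and -1.7 and -1.07 at P56. Adamts20 was the member called in both directions. In males at P21 it had 11.8, 11.9, 13.2 and 13.8 CPM in WT and 17.4, 19.8, 20.5 and 21.1 in R237H rats, and in females 9.3, 12.4 and 15.4 and 15.7, 17.2, 17.5, 19.3 and 20.5. In males at P56 it had 8.41, 11.1, 11.2 and 13.8 in WT and 5.52, 6.21, 7.62 and 8.39 in R237H rats, and in females 9.55, 12.4, 12.9 and 13.2 and 5.57, 6.38, 6.81 and 8.73. R237H rats were above WT at P21 and below WT at P56, where the highest R237H male, at 8.39, lay next to the lowest WT male, at 8.41. The log2 fold change was 0.64 (SE 0.08, FDR 9.90e-05) and 0.55 (SE 0.17, FDR 0.0534) at P21 and -0.65 (SE 0.19, FDR 0.0188) and -0.82 (SE 0.16, FDR 0.00267) at P56, so that the increase passed the test in males and the decrease in females. Adamts3, which removes the propeptide of procollagen II, was tested in females at -0.28 (SE 0.13, FDR 0.201) and -0.33 (SE 0.11, FDR 0.0317) and was not called. Adamts12 and Adamts14 were tested in males and not called, at -0.07 (SE 0.11, FDR 0.696) and 0.22 (SE 0.21, FDR 0.483) at P21 and -0.65 (SE 0.35, FDR 0.165) and 1.47 (SE 0.4, FDR 0.0137) at P56.

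The 4 ADAMTS-like proteins, which share the ADAMTS repeats but have no protease domain, included 3 that rose at P56 and 1 that fell. Adamtsl5 had 0.17, 0.232, 0.302 and 0.393 CPM in WT and 0.439, 0.492, 0.603 and 0.755 in R237H males at P21, and 0.201, 0.44, 0.548 and 0.817 and 5.48, 5.65, 6.61 and 6.63 at P56. In females it had 0.184, 0.282 and 0.553 and 0.423, 0.704, 0.721, 1.09 and 1.14 at P21, and 0.3, 0.694, 1.03 and 1.19 and 4.28, 5.28, 6.38 and 7.31 at P56. It was not called at P21, at 1.06 (SE 0.31, FDR 0.0234) and 1.26 (SE 0.44, FDR 0.0943), and increased at P56, by 3.62 (SE 0.34, FDR 2.71e-05) and 2.84 (SE 0.36, FDR 1.41e-04). Adamtsl4, which binds fibrillin microfibrils, was increased in males at P21 by 1.69 (FDR 2.27e-06) and at P56 by 2.42 in males (FDR 0.00926) and 3.4 in females (FDR 4.02e-06). In females at P21 it missed the threshold, at 1.08 (FDR 0.0467). Adamtsl3 was increased by 2.05 and 1.71 at P56 and in males at P21 by 0.83. Females at P21 had 4.52 to 6.48 CPM of Adamtsl3 in WT and 7.16 to 12.6 in R237H rats, which was not called. Adamtsl2, which binds a latent TGF-beta binding protein, was decreased, at -1.37 and -1.41 at P56 and in males at P21, at -0.65. In females at P21 it was not called, although WT rats had 6.54 to 9.16 CPM and R237H rats 2.42 to 5.85.

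Of the 6 matrix metalloproteinases, Mmp19 and Mmp3 had low levels in WT hippocampus, Mmp3 with 7 counts or fewer per rat, and were raised 9.67-fold or more in R237H rats where tested. Mmp19, which cuts basement membrane proteins, had 0.947, 1.04, 1.19 and 1.35 CPM in WT and 10.4, 11.3, 13.8 and 15.8 in R237H males at P21, and 1.32, 1.52 and 1.72 and 11.2, 11.9, 15.9, 16.8 and 17.2 in females. At P56 it had 1.95, 2.01, 2.19 and 2.78 in WT and 26.9, 40.2, 43.3 and 48.3 in R237H males, and 1.54, 1.73, 2.14 and 2.2 and 34.2, 34.6, 48.8 and 55.2 in females. Every R237H rat was far above every WT rat, and the fitted fold change was 11.3-fold and 9.67-fold at P21 and 18-fold and 22.5-fold at P56 in males and females. The log2 fold changes were 3.5 (SE 0.17, FDR 3.03e-08), 3.27 (SE 0.22, FDR 6.66e-06), 4.17 (SE 0.22, FDR 1.02e-06) and 4.49 (SE 0.21, FDR 2.86e-07). Mmp3, stromelysin-1, whose promoter is shown above, rested on few reads. WT females had 1, 4 and 3 counts at P21 and 5, 1, 1 and 4 at P56, where R237H females had 20, 75, 87, 51 and 56 at P21 and 27, 96, 30 and 171 at P56. WT males at P56 had 2, 7, 2 and 2 counts and R237H males 62, 86, 41 and 52. At P21 the males had 0, 6, 3 and 1 counts in WT and 35, 45, 3 and 9 in R237H rats, and the gene fell under the filter on low counts and was not tested. The log2 fold change was 4.22 (SE 0.6, FDR 8.24e-04) in females at P21 and 4.21 (SE 0.49, FDR 1.01e-04) in males and 4.58 (SE 0.73, FDR 6.48e-04) in females at P56, and with WT rats at 7 counts or fewer its size is uncertain.

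Mmp11, stromelysin-3, was increased in males at both ages, by 1.02 and 1.65, and in females at P56, by 1.79. In females at P21 it was not called, although WT rats had 0.394 to 0.823 CPM and R237H rats 1.09 to 1.68. Mmp14, the membrane-bound activator of Mmp2, was increased in males at P21, by 1.07 (SE 0.11, FDR 1.43e-05), and in females at P56, by 1.25 (SE 0.2, FDR 6.87e-04), and was 1.29 (SE 0.34, FDR 0.0111) in males at P56. Females at P21 had 10.7 to 16.9 CPM of Mmp14 in WT and 16.7 to 28.7 in R237H rats, which was not called. Mmp2, gelatinase A, was tested in females, where it was -0.0 (SE 0.38, FDR 0.996) at P21 and increased by 0.75 (SE 0.18, FDR 0.00691) at P56. WT female R1797C had 29.3 CPM of Mmp2 at P21 against 6.8 and 9.53 in the other WT females. Mmp15, another membrane-bound form, was the one of the 6 that fell. Males at P21 had 35.7, 39.4, 40.8 and 42.4 CPM in WT and 33.9, 40.1, 40.5 and 43.6 in R237H rats, and at P56 36, 36.6, 38.5 and 51.3 and 19.2, 19.3, 20.2 and 24.7. The log2 fold change at P56 was -0.93 (SE 0.14, FDR 4.84e-04) in males and -0.89 (SE 0.13, FDR 4.13e-04) in females, after 0.0 (SE 0.08, FDR 0.991) and -0.12 (SE 0.14, FDR 0.671) at P21.

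Both plasminogen activators rose in every comparison. Plat, tissue plasminogen activator, which neurons, glia and endothelium make, had 55.4, 59, 61.8 and 63.4 CPM in WT and 98.3, 104, 117 and 124 in R237H males at P21. In females at P21 there were 52.7, 64.8 and 65.8 and 102, 106, 124, 128 and 145. At P56 the males had 52.9, 54.2, 54.3 and 58.8 in WT and 148, 167, 211 and 261 in R237H rats, and the females 64.9, 66, 66.5 and 78.9 and 154, 182, 224 and 247. WT rats stayed near one level at both ages, R237H rats were higher at P56, and no groups overlapped. The log2 fold changes were 0.89 (SE 0.08, FDR 3.76e-06) and 1.0 (SE 0.14, FDR 7.67e-04) at P21 and 1.86 (SE 0.17, FDR 1.92e-05) and 1.53 (SE 0.14, FDR 1.79e-05) at P56. Plau, urokinase, was lower in level and went from 1.5 ± 0.105 to 2.67 ± 0.215 in males and 1.92 ± 0.122 to 3.34 ± 0.313 in females at P21, and from 1.38 ± 0.348 to 3.66 ± 0.565 and 1.41 ± 0.297 to 3.4 ± 0.831 at P56. Its log2 fold changes were 0.84, 0.81, 1.42 and 1.26. Per length, WT rats at P56 had 36.9 ± 6.9 TPM of Plat and 0.905 ± 0.269 of Plau (SD, n = 8).

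Serpine2, protease nexin-1, an abundant inhibitor of thrombin and plasminogen activators in brain, fell at P56. Its CPM was 201, 204, 211 and 224 in WT and 174, 181, 181 and 189 in R237H males at P21. In females at P21 there were 186, 189 and 221 and 158, 178, 188, 193 and 196. At P56 the males had 182, 187, 232 and 244 in WT and 67.9, 71.9, 75.5 and 95.4 in R237H rats, and the females 186, 191, 212 and 233 and 65.1, 68.1, 82.8 and 100.3. The R237H rats at P56 stood apart below all other rats, and the log2 fold change went from -0.21 (SE 0.05, FDR 0.0118) to -1.42 (SE 0.14, FDR 3.61e-05) in males and from -0.11 (SE 0.09, FDR 0.525) to -1.39 (SE 0.15, FDR 4.22e-05) in females. Per length, its WT level at P56 was 149 ± 13.4 TPM (SD, n = 8).

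Among the TIMPs, which block metalloproteinases, Timp1 was the one with large changes. Its CPM was 1.33, 1.69, 1.9 and 1.95 in WT and 19.2, 20.1, 24.8 and 40.8 in R237H males at P21. In females it was 1.29, 1.8 and 2.03 and 24.4, 31, 36.4, 40.6 and 42.7. At P56 it was 0.721, 1.0, 1.34 and 2.49 in WT and 23.8, 24.3, 28.1 and 30.4 in R237H males, and 1.37, 1.97, 2.4 and 2.43 and 20.9, 24.7, 29.4 and 39.8 in females. The genotypes were an order of magnitude apart at both ages, with log2 fold changes of 3.95 (SE 0.25, FDR 2.91e-07) and 4.36 (SE 0.25, FDR 3.17e-06) at P21 and 4.26 (SE 0.34, FDR 9.87e-06) and 3.8 (SE 0.25, FDR 1.62e-06) at P56. Timp2 was the TIMP with the highest WT level, 112 ± 17.8 TPM at P56 against 23.9 ± 7.12 for Timp3 and 4.03 ± 1.94 for Timp1 (SD, n = 8). It was tested in females, 0.25 (SE 0.13, FDR 0.259) at P21 and increased by 0.65 (SE 0.11, FDR 9.25e-04) at P56. Timp3, a TIMP bound to the matrix, was increased in males at P21, by 1.08 (SE 0.07, FDR 5.33e-07), and in females at P56, by 0.74 (SE 0.11, FDR 3.60e-04), and was 1.03 (SE 0.24, FDR 0.0147) in females at P21 and 0.62 (SE 0.18, FDR 0.0216) in males at P56. Serping1, the inhibitor of complement C1, rose from 6.39 ± 1.3 to 59.4 ± 16 CPM in males and 7.21 ± 0.348 to 64.5 ± 10.3 in females at P21, and from 11.5 ± 5.81 to 139 ± 7.01 and 9.54 ± 3.29 to 164 ± 45.3 at P56. Serpinb1a, an inhibitor of neutrophil proteases with close paralogs that may share its reads, was increased in males at both ages, by 1.52 and 2.82, and in females at P56, by 3.03. In females at P21 it missed the threshold, at 1.28 (FDR 0.029).

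**Figure D3:**
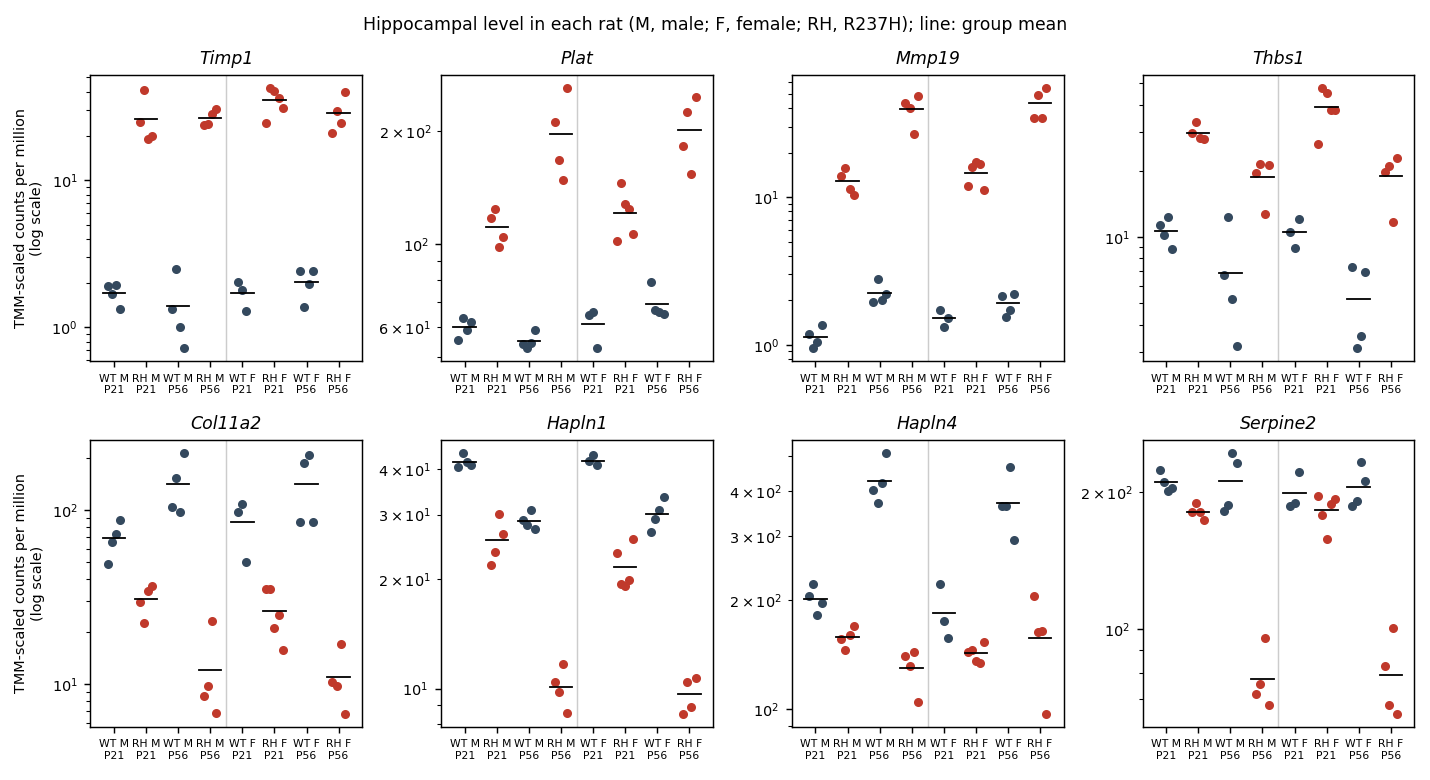
TMM-scaled CPM of 8 members in each of the 32 rats (log axis), by sex, age and genotype, with 1 point per rat and a line at the group mean; RH is R237H. Timp1, Plat, Mmp19 and Thbs1 are higher and Col11a2, Hapln1, Hapln4 and, at P56, Serpine2 lower in R237H rats, and R237H points for Col11a2 at P56 lie at 6.78 to 22.9 where WT points lie at 85.4 to 213.

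A term for age by genotype, fitted to the 16 rats of each sex, tested whether the log2 fold change differed between P56 and P21. Over all genes tested it was called for 10.1% in males and 2.15% in females. Among the members named by the other sex it was called for 16 of 57 in males, 8 higher and 8 lower at P56, and 6 of 53 in females, 4 higher and 2 lower. This share was not computed for all identifiers named by the other sex, the nearer background. The counts by themselves are therefore no result about these members. Among those members Fbln5 had the largest positive difference in each sex, 3.17 in males and 2.83 in females. Lama4 was also called in both, at 1.15 each, as were Serpine2, at -1.23 and -1.27, and Adamts20, at -1.31 and -1.37. In males the term was also called for, among others, Thbs4 (2.93, on few WT counts), Adamtsl5 (2.53), Adamts4 (1.2), Plat (0.95) and Adam17 (0.5). It was negative for Col11a2 (-2.38), Hapln4 (-1.36), Col12a1 (-1.16), Mmp15 (-0.96), Col27a1 (-0.91) and Hapln1 (-0.79). In females it was also called for Adamtsl4 (2.34) and Lama5 (1.97). Timp1, Loxl4, Adamts5 and Col14a1, with some of the largest fold changes, were not called in either sex. Without the 5 choroid plexus rats the count was 18 in males and 2 in females, where Lama5 and Serpine2 remained and Fbln5, Adamtsl4, Lama4 and Adamts20 were lost, at 2.62, 1.85, 1.0 and -1.07; in males Adam17, Col11a2 and Col27a1 were lost, at 0.45, -2.04 and -0.78, and Adamtsl4, Col6a2, Cspg4b, Lama5 and Serpinb1a gained, at 1.64, 1.12, 1.64, 1.48 and 1.75.

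**Figure D4:**
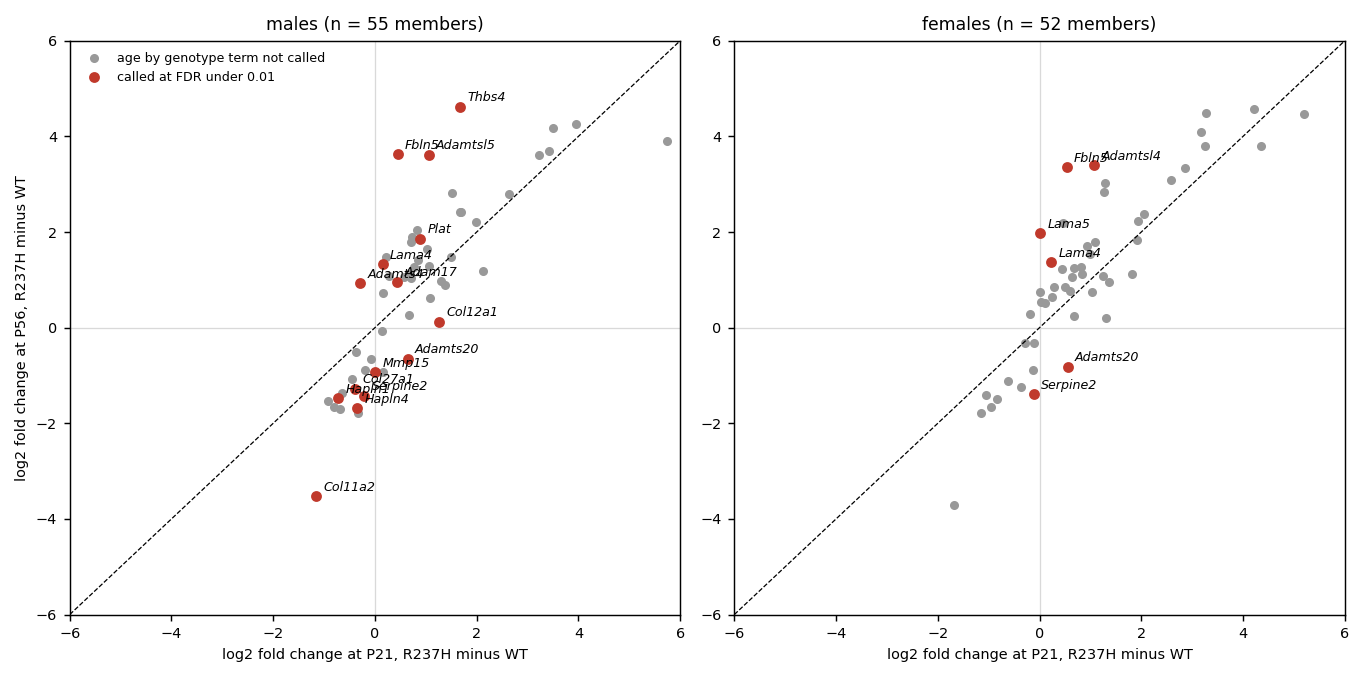
Log2 fold change, R237H minus WT, at P56 against P21 for members named by the other sex, in males (55 members drawn) and females (52), with the line of equal values dashed. Red points passed the test of age by genotype; Fbln5 stands above the line in both panels, at 0.45 and 3.63 in males and 0.53 and 3.35 in females.

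The rats with choroid plexus RNA touched some members more than others. WT male s66-B was the highest of its 4 rats for 39 of the 66 members and more than 2-fold above the next for 16. WT female R1797C was the highest of 3 for 24 members and more than 2-fold above for 6, namely Adamtsl4, Cspg4b, Lama3, Loxl4, Mmp2 and Thbs4. For the other 3 such rats no member was more than 2-fold above the next of its group. Without the 5 rats the counts at P56 were 32 increased and 10 decreased for males, and 32 and 10 for females, and those at P21 were 32 and 8 for males, and 18 and 3 for females. In males at P56, Adamts14, Cspg4b, Lama3, Mmp14, Thbs2 and Timp3 were then called increased, with log2 fold changes of 1.86, 2.64, 2.03, 1.35, 2.66 and 0.85. Adam12, Adam9, Col5a3 and Ncan were no longer called, at 0.97, 0.64, 0.81 and 0.77, and neither was the decrease of Adamts16, at -1.6. Col1a1, Col1a2 and Lama2 reached 101, 146 and 49.0 CPM in s66-B, where the other WT males had at most 32.8, 39.5 and 14.8. Without the 5 rats, Col16a1 and Mmp2 were no longer called in females at P56, at 0.8 and 0.68. In females at P21 Adam12, Lamc1, Plau and Thbs2 were lost, at 0.87, 0.67, 0.85 and 2.26, as was the decrease of Adamts19, at -1.09, while Adamtsl4, Lama3 and Serpinb1a were called increased, at 1.56, 1.06 and 1.77. In males at P21 Fbln5 and Adamts17 were lost, at 0.46 and -0.45, and Cspg4b was called, at 0.97.

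**Figure D5:**
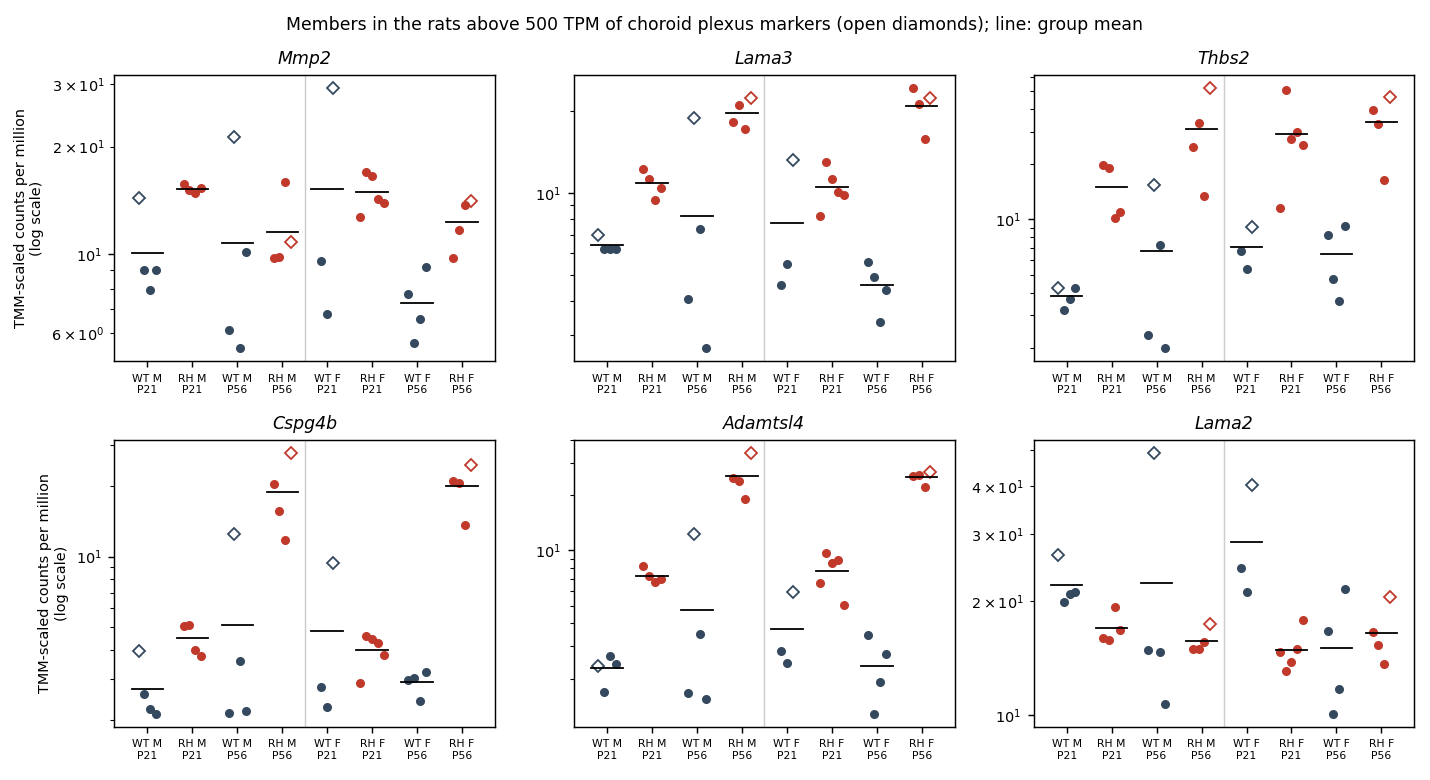
TMM-scaled CPM of 6 members in each rat (log axis) by sex, age and genotype, with open diamonds for the 5 rats above 500 TPM of choroid plexus markers and a line at the group mean. WT male s66-B at P56 (18.9 CPM of Lama3) and WT female R1797C at P21 (29.3 CPM of Mmp2) lie above the other WT rats of their groups.

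Of 74 other genes listed for collagen processing, matrix glycoproteins and proteoglycans, hyaluronan, protease receptors and the TGF-beta axis, 42 had a symbol, from the same ranked lists, so their counts are a description. In males 26 were increased and 7 decreased at P21 and 25 and 6 at P56, and in females 16 and 3 at P21 and 28 and 6 at P56. Over all genes tested 12.4% and 16.8% were increased in males at P21 and P56, and 7.06% and 17.0% in females. Of all identifiers named by the other sex, 60.0% and 65.7% were increased in males and 36.3% and 63.8% in females. The counts by themselves are therefore no result about these 42 genes. The 6 with the lowest FDR in males at P56 were all higher in R237H rats. The hyaluronan receptor Cd44 had log2 fold changes of 2.88 and 2.9 at P21 and 4.16 and 4.19 at P56 in males and females, and the glycoprotein Tnc, tenascin-C, 2.97, 3.04, 3.41 and 3.36. Spp1, osteopontin, had 3.99 and 4.49 at P21 and 7.3 and 6.07 at P56. Tgfb1, the growth factor, had 1.18, 1.1, 1.88 and 1.78. S100a10, a plasminogen receptor subunit, had 2.0, 2.24, 2.23 and 2.48. P4hb, a subunit of prolyl 4-hydroxylase, had 0.37 and 0.51 at P21 and 0.99 and 0.97 at P56. The 6 decreased in males at P56, apart from Acan and Bcan given above, were Lamb1, a laminin beta chain, at -0.52, Vtn, vitronectin, at -1.0, Htra1, a serine protease, at -0.67, and Spock3, a testican, at -0.75. In females at P56 they had -0.62, -1.1, -0.57 and -0.8.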

How the data were processed

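Hippocampal RNA from 32 rats in 8 groups of genotype, sex and age was sequenced after poly(A) selection with a stranded kit. Per the submitters' processing notes and the study's methods, the authors used bcl2fastq 2.20.0.422, Skewer, STAR, RSEM and edgeR; the genome build is not given in the sources used here. The deposited gene table holds RSEM expected counts (estimated counts, 5.68% of values not whole), and a second deposited table holds TPM, which the authors scaled per length and library.

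Expected counts were rounded and, within each sex and age, filtered with filterByExpr, scaled by TMM and tested with the quasi-likelihood test of edgeR 4.0.16 (R 4.3.3), R237H against WT, adjusted by Benjamini-Hochberg over all genes tested, with an FDR threshold of 0.01 as in the study's methods. Age by genotype was tested in the 16 rats of each sex. Levels per rat are TMM-scaled CPM over all 32 rats. TPM was used for levels between genes and for marker sums; it shifts the median log2 fold change of all genes at P56 by 0.403 in males and 0.292 in females, so it was not used for differences. The model fits were tested on simulated data.

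The members, the other lists and the tests were chosen with earlier results of these data known. Symbols came from the names in the study's lists of differential genes, whose fold changes and p-values were not used; the reference here holds no Ensembl rat identifiers, so the wider gene families that had been planned were not counted. Of the 66 members, 1 is counted but its own values are not reported here; the others are named, with values per rat for members on all 4 lists and for those whose pattern over age or sex is described, the last chosen after their values were seen. Depth per rat was 21580398 to 55544866 counts, and p-values measure the spread between rats of 1 tissue sample each. In males at P21 that is the spread between rats that all share 1 title number. Alternatives were other factors, filters and tests (DESeq2 1.42.0 among them), a single model of all 32 rats, a replicate block for the number in the title, leaving out each rat and, added after seeing the data, leaving out the 5 rats above 500 TPM of choroid plexus markers. The main fits have no block. The correlation r between a WT and an R237H rat was taken over deviations from their group means. For rats with the same title number it was -0.017 to 0.22 in males at P56. In females it was 0.066 and 0.47 at P56, and 0.024, 0.054 and 0.39 at P21. Pairs with different numbers had -0.25 to 0.31, -0.31 to 0.27 and -0.27 to 0.2 in that order. Whether rats with the same number are paired was not settled.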

Additional observations from a re-analysis of the deposited data

Results flagged for a closer look

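In 154 tests of groups of 4 or 5 rats, over 22 members, 8 groups held a rat whose distance to the nearest other rat was large for the range of its group (Dixon's test at 95%). Chance alone gives about 1 in 20. Most of the 22 are on all 4 lists, and some members given by rat above, such as Col12a1 and Fbln5, were not tested. WT male s66-B at P56, the rat with the most choroid plexus RNA, had 18.1 CPM of Adamts1 where the other WT males had 8.47 to 9.16, and 4.54 of Serpinb1a where they had 1.43 to 1.71. WT male s70-A at P56 had 69.2 of Hapln3 against 40.9 to 42.8. R237H male R1781E at P21 had 23.5 of Loxl4 against 16.3 to 17.1. Among females at P56, WT s64-B had 78.9 of Plat against 64.9 to 66.5, WT s71-D had 0.763 of Adamts5 against 1.47 to 1.55, and R237H s69-C had 7.79 of Adamts5 against 12.2 to 13.2. R237H female R1789A at P21 had 27.4 of Timp3 against 54.1 to 66.3.

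The log2 fold change differed between P56 and P21, by the test of age by genotype, for 16 members in males and 6 in females. In males the difference, P56 minus P21, was, among others, 0.5 for Adam17, 0.95 for Plat, 1.15 for Lama4, 1.2 for Adamts4, 2.53 for Adamtsl5, 2.93 for Thbs4 and 3.17 for Fbln5. It was -0.79 for Hapln1, -0.91 for Col27a1, -0.96 for Mmp15, -1.16 for Col12a1, -1.23 for Serpine2, -1.31 for Adamts20, -1.36 for Hapln4 and -2.38 for Col11a2. In females it was 1.15 for Lama4, 1.97 for Lama5, 2.34 for Adamtsl4 and 2.83 for Fbln5, and -1.27 for Serpine2 and -1.37 for Adamts20. Age and collection cannot be told apart in these differences.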

How the results depend on the processing

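For 22 members the fold change was followed under other scaling factors, by TPM and on leaving out each rat. None of these that was called changed direction. On leaving out a rat, 675 results were the same, 23 lost a call and 6 gained one. By TPM 62 fold changes were the same and 26 moved by the SD between rats or more. For other alternatives counts of calls are given. Counts of calls stayed within 1.5 times the main count except in these cases. With all 32 rats in one model, 3 members were decreased in males at P21 in place of 9. With a replicate block for the number in the title, 9 members were increased in females at P21 in place of 19. Adam12, Adam17, Adamts1, Col12a1, Lamc1, Mmp3, Ncan, Plat, Plau and Thbs2 were among those lost. In females at P21 only title numbers R1790 and R1797 hold both genotypes. Rats with other numbers therefore give the blocked fit no contrast of genotypes. Whether rats with the same number are paired was not settled. The block gave 27 increased and 11 decreased in males and 30 and 8 in females at P56. The age by genotype count in females was 6, and was 13 with the likelihood-ratio test, 13 with DESeq2, 15 at an FDR under 0.05 and 2 without the 5 choroid plexus rats. Leaving out each rat in turn gave 23 to 34 increased and 10 to 12 decreased for males, and 32 to 34 and 9 to 10 for females, at P56, 29 to 32 and 7 to 9 for males, and 14 to 23 and 1 to 5 for females, at P21, and 14 to 23 age by genotype terms in males and 3 to 8 in females. The count of 1 decreased came without WT R1790A or WT R1796A, which left 2 WT females, and the count of 3 terms without WT R1797C. The causes were not tested.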
